A study of Mus musculus with 4 samples.

Results

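The TRBJ1 segments are the 6 joining segments of the 5′ D-J-C cluster of the mouse T-cell receptor β locus, TRBJ1-1 to TRBJ1-6. They were followed through T-cell receptor β (TRB) clonotype tables of CD8+ T cells from livers that carried MC38 tumours. A clonotype row belonged to the cluster when the first J segment listed for it was a TRBJ1 segment, which held for 81992 of 261962 rows. The other 179970 rows listed one of 6 TRBJ2 segments. Of the TRBJ1 rows, 74971 were in frame, 6739 were out of frame and 282 were in frame with a stop codon.

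MC38, a mouse colon carcinoma line that the labels call melanomas, had been injected 14 days earlier into wild-type mice or mice lacking Vsig4 (Vsig4-/-), which encodes a macrophage receptor of the immunoglobulin superfamily. Live cells positive for CD45, CD3 and CD8 were sorted from collagenase-digested liver, and total RNA was reverse transcribed for 2 libraries per genotype. Every group carried tumours, so no tumour-free liver enters any comparison, and no age, sex or strain of the mice is given in the labels. Nothing in the labels states that the libraries came from different mice. All p-values therefore refer to these 4 samples alone, and part of the spread among them may be technical. The edgeR p-values also rest on the counting error of clonotypes or counts and on a spread estimated in part across segments or pairs. Transcripts of Vsig4 and of Cd8a were not part of the assay, and genotype and cell type rest on the labels.

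A β chain gene is made by joining a D segment to a J segment and then a V segment to the joined DJ. At each junction the ends are trimmed and untemplated bases are added, and the stretch that results codes for CDR3, the loop that carries much of the contact with peptide. Each D-J-C cluster has its own D segment, J segments and constant gene. Because TRBD2 lies 3′ of the TRBJ1 segments, direct joining by deletion gives TRBJ1 segments access to TRBD1 alone, whereas TRBJ2 segments can take either D. A joint that is out of frame encodes no β chain, and its transcripts come from cells that carry a productive joint on the other allele, so out-of-frame joints show segment use without selection on the protein.

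The segments lie in order on chromosome 6 of GRCm38.p6, the assembly family of the mm10 build used for the deposited tables, and are annotated as J segments in RefSeq. Trbj1-1 (chr6:41533864-41533911) starts 651 bases 3′ of Trbd1 (chr6:41533201-41533212). It is followed by Trbj1-2 (chr6:41534001-41534048), Trbj1-3 (chr6:41534323-41534372), Trbj1-4 (chr6:41534811-41534861), Trbj1-5 (chr6:41535084-41535133) and Trbj1-6 (chr6:41535554-41535606), which starts 2341 bases from Trbd1. Trbj1-7 (chr6:41535642-41535687) was listed as the J segment of 0 rows.

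The germline bases that each segment adds to CDR3 are shown because the trimming described below is counted from their 5′ ends. They were read from clonotypes in which the segment was neither trimmed nor extended. Bases run 5′ to 3′ up to the last CDR3 base, and capitals mark bases kept in at least 50% of the in-frame clonotypes of the segment.
TRBJ1-1: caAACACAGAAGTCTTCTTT
TRBJ1-2: cAAACTCCGACTACACCTTC
TRBJ1-3: TTCTGGAAATACGCTCTATTTT
TRBJ1-4: tttCCAACGAAAGATTATTTTTC
TRBJ1-5: taACAACCAGGCTCCGCTTTTT
TRBJ1-6: ttccTATAATTCGCCCCTCTACTTT
TRBJ1-1 and TRBJ1-2 bring 20 germline bases into CDR3, TRBJ1-3 and TRBJ1-5 bring 22, TRBJ1-4 brings 23 and TRBJ1-6 brings 25. Of the untrimmed clonotypes, 97.6% (TRBJ1-6) to 99.2% (TRBJ1-5) carried exactly the bases printed here. TRBJ1-3 kept its first base in 50.7% of in-frame clonotypes and therefore has 0 lower-case bases, whereas TRBJ1-6 has 4.

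The libraries held 901567 to 1269480 counts and 47017 to 73769 in-frame clonotypes, where a clonotype is one V and J segment together with one CDR3 nucleotide sequence. Vsig4-/- library 2 stood apart in depth and make-up. It had the highest total, 33.6% of its in-frame TRBJ1 clonotypes had 1 count (19.0% to 22.2% in the other 3), and 6.54% of its TRBJ1 clonotypes were out of frame (8.46% to 9.18% in the other 3). The part of these differences in the results was not tested.

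The first question was how the 6 segments share the repertoire. Among in-frame clonotypes, TRBJ1-1, the segment nearest TRBD1, was the most used of the 6 and TRBJ1-5 the least used. TRBJ1-1 took 9.30% and 9.75% of in-frame clonotypes in wild-type libraries 1 and 2, and 9.89% and 9.31% in Vsig4-/- libraries 1 and 2. TRBJ1-2 took 6.16%, 6.35%, 6.58% and 6.87% in the same order, and TRBJ1-4 took 5.96%, 5.94%, 6.05% and 5.92%. Both lay well below TRBJ1-1 in every library, and TRBJ1-2 lay above TRBJ1-4 in each. TRBJ1-3 took 3.95%, 3.93%, 3.92% and 3.70%, and TRBJ1-6 took 2.94%, 2.88%, 3.04% and 3.32%. TRBJ1-5 took 2.33%, 2.42%, 2.79% and 2.48%. The order TRBJ1-1, TRBJ1-2, TRBJ1-4, TRBJ1-3, TRBJ1-6, TRBJ1-5 was therefore the same in all 4 libraries, and the ranges of neighbours in it did not overlap. It does not follow position along the cluster, since TRBJ1-4 was used more than TRBJ1-3 and TRBJ1-6 more than TRBJ1-5. By counts the order varied between libraries. In Vsig4-/- 2, TRBJ1-2 held 5.77% of in-frame counts and TRBJ1-1 held 5.50%. In wild-type 2, TRBJ1-5 held 3.76%, above the 3.30% of TRBJ1-3.

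**Figure D1:**
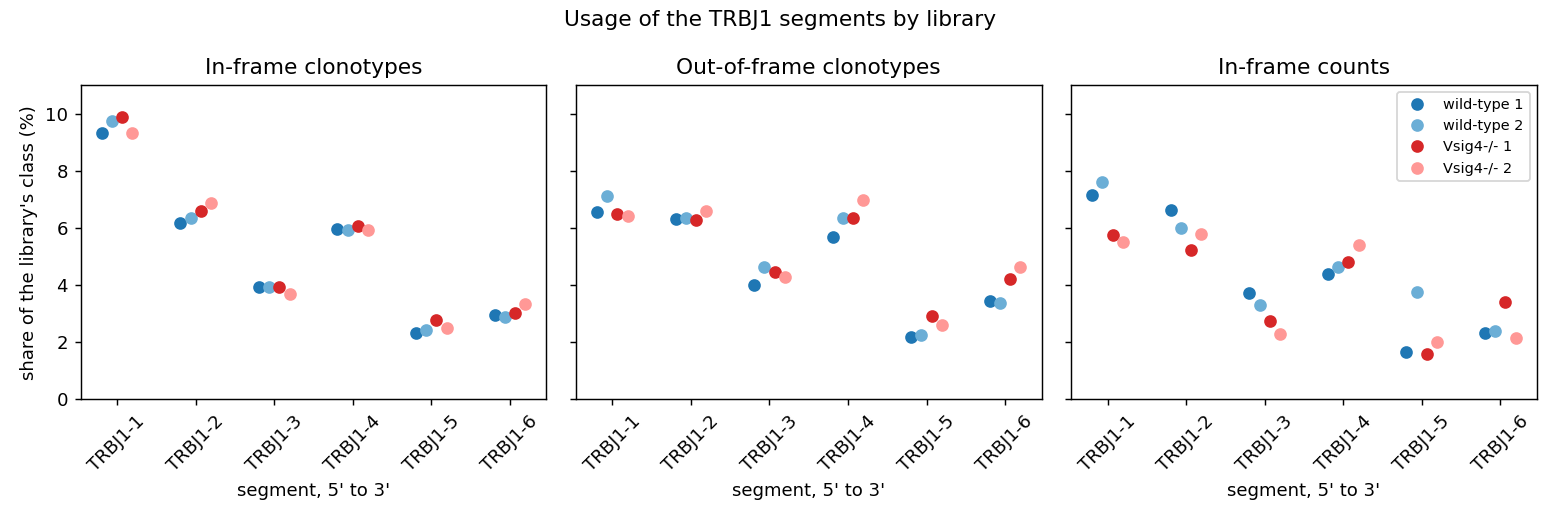
Share (%) of each TRBJ1 segment in the in-frame clonotypes, out-of-frame clonotypes and in-frame counts of its library, 1 point per library (blue wild-type, red Vsig4-/-), with segments in locus order. TRBJ1-1 stands above the other 5 among in-frame clonotypes (9.30% to 9.89%) but overlaps TRBJ1-2 and TRBJ1-4 among out-of-frame clonotypes, and the spread between libraries is wider by counts.

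The next comparison set in-frame against out-of-frame joints, which asks how the use of a segment differs between joints that can and cannot encode a β chain. TRBJ1-1 was more frequent among in-frame joints, and TRBJ1-3 and TRBJ1-6 were less frequent. TRBJ1-1 held 6.55%, 7.12%, 6.49% and 6.40% of out-of-frame clonotypes in wild-type 1, wild-type 2, Vsig4-/- 1 and Vsig4-/- 2. These values overlap those of TRBJ1-2 (6.30%, 6.33%, 6.27% and 6.58%) and TRBJ1-4 (5.69%, 6.33%, 6.35% and 6.99%), so among out-of-frame joints TRBJ1-1 did not stand clear of these segments. Its log2 ratio of in-frame to out-of-frame share was 0.51, 0.45, 0.61 and 0.54 in the 4 libraries. All 4 were positive, and the fitted log2 ratio was 0.52 ± 0.040 (SE, edgeR quasi-likelihood with library as a block, adjusted p = 4.18e-14, 4 libraries).

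TRBJ1-6, the segment farthest from TRBD1, went the other way. It held 3.43%, 3.37%, 4.21% and 4.63% of out-of-frame clonotypes, more than its in-frame share in each library. The fitted log2 ratio was -0.35 ± 0.061 (SE, edgeR, adjusted p = 9.80e-06). The 2 Vsig4-/- libraries had the lower log2 ratios, -0.47 and -0.48 against -0.22 and -0.23 in wild-type libraries. That difference between genotypes, -0.25 ± 0.10 (SE), gave an edgeR p of 0.0158 and an adjusted p of 0.190 over the 12 segments.

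TRBJ1-3 had log2 ratios of -0.02, -0.24, -0.19 and -0.21, with wild-type library 1 near 0. Its fitted log2 ratio was -0.18 ± 0.053 (SE, edgeR, adjusted p = 0.00591). The call was lost without wild-type library 2 (adjusted p = 0.160), without Vsig4-/- library 1 (0.0623) or without Vsig4-/- library 2 (0.0584), and by DESeq2 (0.0576). TRBJ1-4 gave -0.09 ± 0.041 (SE, edgeR, adjusted p = 0.0851) and passed the threshold without wild-type library 1 (adjusted p = 0.0112). TRBJ1-2 gave 0.03 ± 0.040 and TRBJ1-5 gave 0.02 ± 0.077 (SE, edgeR, adjusted p = 0.716 and 0.862).

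Over all 12 J segments, 4 (33.3%) passed the threshold in this comparison. Of them, 3 were TRBJ1 segments, and the other was TRBJ2-4, which was lower among in-frame joints. The median log2 ratio was -0.03 over the 6 TRBJ1 segments and -0.03 over all 12. Seen within a segment, out-of-frame joints made up 6.61%, 7.08%, 6.52% and 4.60% of TRBJ1-1 clonotypes and 10.5%, 10.9%, 12.8% and 8.92% of TRBJ1-6 clonotypes. No out-of-frame share of TRBJ1-6 was as low as any of TRBJ1-1.

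**Figure D2:**
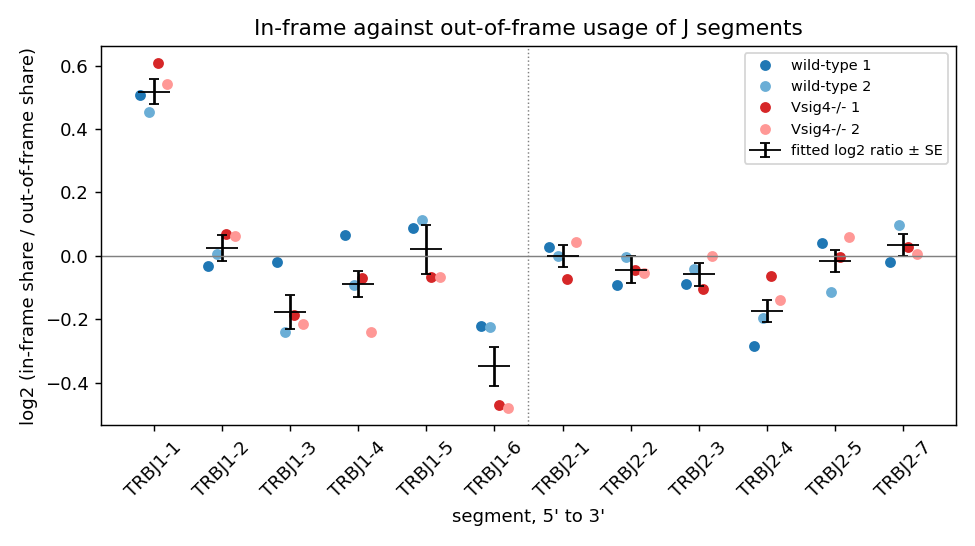
Log2 ratio of in-frame to out-of-frame share for each J segment, with 1 point per library and the fitted value with its SE in black. TRBJ1-1 lies at 0.45 to 0.61 in the 4 libraries and TRBJ1-6 at -0.48 to -0.22, and the TRBJ2 segments stand to the right of the dotted line, where TRBJ2-4 reaches -0.28 in wild-type 1.

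How much of each segment was removed before joining differed more between segments than between libraries. TRBJ1-6 was trimmed most, by a mean of 4.19, 4.24, 4.10 and 4.27 germline bases in in-frame clonotypes of wild-type 1, wild-type 2, Vsig4-/- 1 and Vsig4-/- 2. TRBJ1-3 was trimmed least, by 1.51, 1.51, 1.48 and 1.49 bases. TRBJ1-2 lost 1.72 to 1.80 bases, TRBJ1-5 2.57 to 2.75, TRBJ1-1 2.76 to 2.85 and TRBJ1-4 2.93 to 2.96. These ranges did not overlap.

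The segment was left whole in 50.7% ± 0.63 (SD, n = 4) of in-frame TRBJ1-3 clonotypes and 39.6% ± 0.49 of TRBJ1-2 clonotypes. The whole share was 28.7% ± 0.71 for TRBJ1-4, 25.6% ± 0.28 for TRBJ1-1, 25.5% ± 1.34 for TRBJ1-5 and 19.9% ± 1.79 for TRBJ1-6 (SD, n = 4). Whole segments were the most frequent outcome for all 6. TRBJ1-6 had a further peak at 7 bases removed, which held 17.6% ± 1.12 (SD, n = 4) of its in-frame clonotypes, and 26.7% to 28.7% of them had lost 7 or more. For TRBJ1-2 that share was 0.643% to 1.06%.

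Trimming in out-of-frame joints was close to that in in-frame joints. For the cluster, in-frame joints had lost 0.0312 bases fewer than out-of-frame joints, with differences of 0.0468, -0.0198, -0.126 and -0.0260 bases in the 4 libraries. The signs were mixed (two-sided exact sign-flip permutation test, p = 0.625), and the smallest p that 16 sign flips allow is 0.125. TRBJ1-3 was the one segment with the same sign in all 4 libraries. Its in-frame joints had lost 0.415, 0.138, 0.232 and 0.169 bases more than its out-of-frame joints (exact p = 0.125, adjusted over the 6 segments 0.750). Among its out-of-frame joints 53.1% to 61.8% kept the whole segment, above the 50.1% to 51.6% of its in-frame joints.

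**Figure D3:**
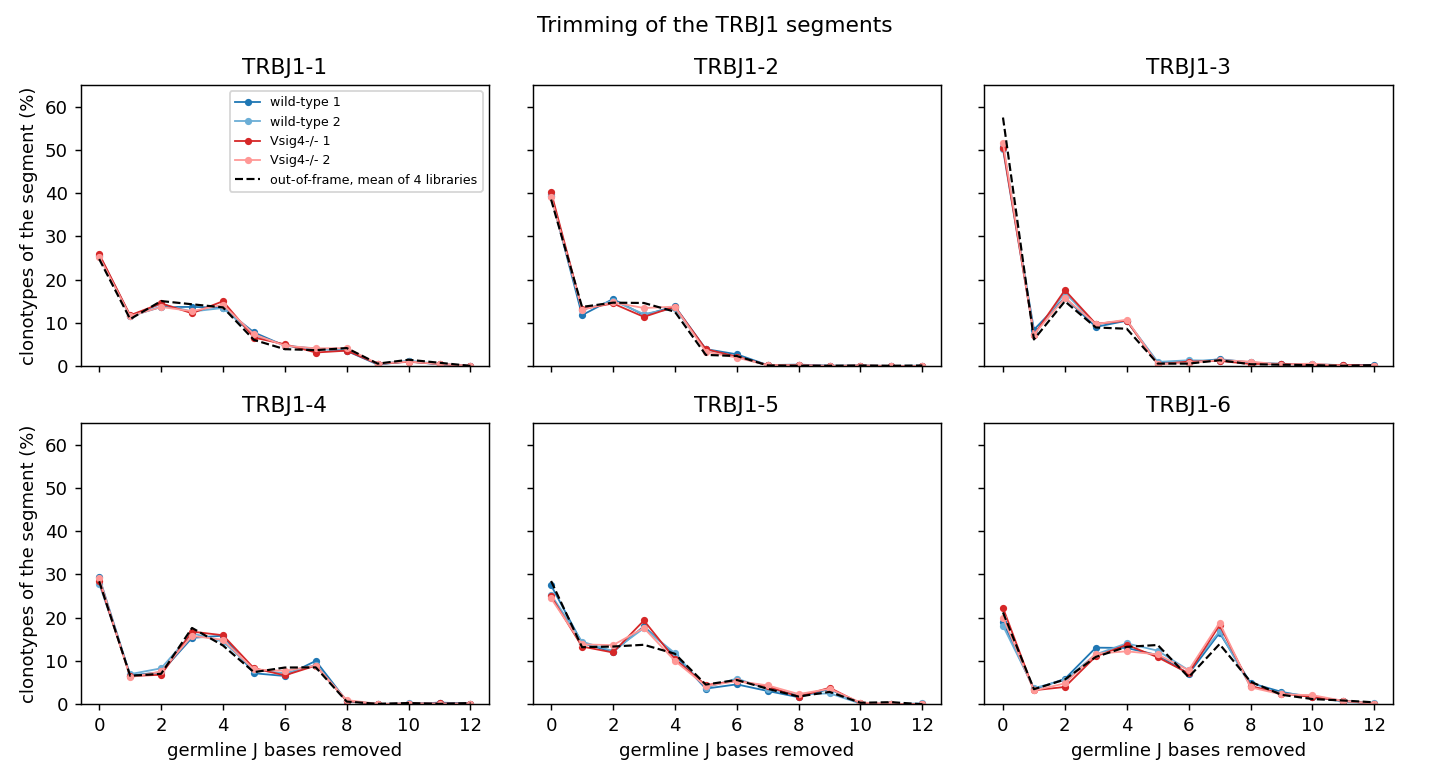
Share (%) of clonotypes of each TRBJ1 segment by the number of germline J bases removed, with a line per library for in-frame clonotypes and a dashed line for the mean out-of-frame profile. The 4 libraries lie close together, TRBJ1-3 is left whole in 50.7% of in-frame clonotypes, and TRBJ1-6 peaks again at 7 bases.

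Loop length also differed between the segments. CDR3 was shortest with TRBJ1-1, at a mean of 13.3 amino acids in each of the 4 libraries, and longest with TRBJ1-6 and TRBJ1-4, at 14.3 amino acids in each. TRBJ1-2 loops averaged 13.6 amino acids, TRBJ1-5 13.9 to 14.0 and TRBJ1-3 14.2 to 14.3. Loops of at most 11 amino acids made up 10.2% to 11.3% of TRBJ1-1 clonotypes and 1.33% to 1.55% of TRBJ1-6 clonotypes. Loops of at least 17 amino acids made up 0.280% to 0.536% and 3.67% to 4.55%. TRBJ1-1, at the 5′ end of the cluster, thus stood at the short end of the length range, and TRBJ1-6 shared the long end with TRBJ1-4. Length did not follow position, since TRBJ1-5 loops were shorter than those of TRBJ1-3 and TRBJ1-4.

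The stretch between the end of the V segment and the start of the J segment, which holds the D segment and the added bases, was shorter with TRBJ1 than with TRBJ2. In in-frame clonotypes it averaged 8.34 ± 0.038 bases (SD, n = 4) with TRBJ1 and 9.98 ± 0.018 with TRBJ2. This in-frame difference was -1.66, -1.67, -1.65 and -1.61 bases in the 4 libraries (exact sign-flip permutation test, p = 0.125, the smallest that the design allows). Within the cluster the in-frame stretch ran from 7.79 to 7.89 bases with TRBJ1-3 to 8.67 to 8.83 bases with TRBJ1-4. In out-of-frame clonotypes it was longer with both clusters, at 8.99 ± 0.045 bases with TRBJ1 and 10.33 ± 0.040 with TRBJ2 (SD, n = 4).

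Of in-frame TRBJ1 clonotypes, 49.0% ± 0.46 (SD, n = 4) were assigned TRBD1 alone, 3.58% ± 0.22 TRBD2 alone, 15.2% ± 0.21 both with equal scores and 32.2% ± 0.22 no D segment. The TRBD2 matches in TRBJ1 clonotypes were short, with a mean of 6.25 to 6.37 bases in the 4 libraries, against 9.34 to 9.36 bases for TRBD2 in TRBJ2 clonotypes. TRBD1 matches had 7.70 to 7.76 bases in TRBJ1 clonotypes. TRBJ2 clonotypes were assigned TRBD1 alone in 25.5% ± 0.75 and TRBD2 alone in 42.4% ± 0.80 (SD, n = 4). The constant gene does not tell the clusters apart here, since TRBC2 was listed first in 99.8% of TRBJ1 and 99.9% of TRBJ2 clonotypes.

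V segments differed in how often they were joined to TRBJ1 as opposed to TRBJ2. In-frame, 16 of 23 V segments tested (69.6%) differed from the mean pattern, 7 with more and 9 with less TRBJ1 (edgeR, adjusted p under 0.05, 4 libraries with library as a block). Among those past the threshold, TRBV26 had the highest log2 ratio, 0.38 ± 0.046 (SE, edgeR, adjusted p = 2.60e-05), with TRBJ1 in 38.5%, 36.6%, 37.7% and 37.1% of its clonotypes. TRBV31, which lies 3′ of both clusters (chr6:41557693-41558371) in the opposite orientation and joins by inversion, had a log2 ratio of 0.33 ± 0.041 (SE, adjusted p = 2.60e-05). TRBV19 had 0.32 ± 0.044 (SE, adjusted p = 6.70e-05). Over these 3 the lowest TRBJ1 share in any library was 34.0%, that of TRBV19 in wild-type 1. The cluster held 30.6% to 32.3% of all in-frame clonotypes.

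Of the segments past the threshold, TRBV30, TRBV17 and TRBV16 had the least TRBJ1. TRBV17 took a TRBJ1 segment in 20.4%, 21.2%, 23.0% and 18.8% of its clonotypes, with a log2 ratio of -0.81 ± 0.055 (SE, edgeR, adjusted p = 3.41e-07). TRBV16 had -0.64 ± 0.060 (SE, adjusted p = 3.00e-06). TRBV30 had -0.92 ± 0.14 (SE, adjusted p = 0.000169), on 59 TRBJ1 clonotypes over the 4 libraries.

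Among out-of-frame joints, 8 of 24 V segments (33.3%) passed the same test, and 5 without wild-type library 1. Among these 8, the highest log2 ratios were those of TRBV1 (0.55 ± 0.079 SE), TRBV31 (0.39 ± 0.053 SE) and TRBV29 (0.32 ± 0.10 SE), with edgeR adjusted p-values of 0.000294, 0.000288 and 0.0343. The call of TRBV29 was lost without wild-type library 1, without either Vsig4-/- library and without clonotypes of 1 count. The lowest of the 8 were those of TRBV17 (-0.92 ± 0.090 SE), TRBV12-2 (-0.41 ± 0.12 SE) and TRBV13-2 (-0.35 ± 0.060 SE), with edgeR adjusted p-values of 2.67e-05, 0.00224 and 0.000997. In both frames 7 V segments passed, 3 with more TRBJ1 in each, 3 with less in each and 1 with opposite signs.

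The test of the difference between frames, chosen after the data were seen, was passed by 6 of 24 V segments (25%). The 3 TRBV13 members had relatively more TRBJ1 in frame than out of frame. TRBV13-2 took TRBJ1 in 30.4%, 31.8%, 32.4% and 32.8% of in-frame clonotypes and in 21.0%, 25.7%, 26.8% and 27.1% of out-of-frame clonotypes. The in-frame share was the higher in each library, and the difference of log2 ratios was 0.38 ± 0.074 (SE, edgeR, adjusted p = 2.19e-05). TRBV13-3 gave 0.40 ± 0.092 (SE, adjusted p = 0.000242) and TRBV13-1 gave 0.26 ± 0.082 (SE, adjusted p = 0.0105, and 0.166 without wild-type library 2). TRBV1, at the 5′ end of the locus, gave -0.35 ± 0.081 (SE, adjusted p = 0.000242), with TRBJ1 in 34.5% of all its in-frame and 38.7% of all its out-of-frame clonotypes. TRBV4 gave -0.27 ± 0.091 (SE, adjusted p = 0.0157, and 0.102 without wild-type library 2). TRBV30 gave -1.84 ± 0.72 (SE, adjusted p = 0.0469) on 10 out-of-frame TRBJ1 clonotypes, and this call was lost without any 1 of wild-type library 1 and the 2 Vsig4-/- libraries.

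Single V-J pairs were then set against the number expected from the V total and the J total of the library. A log2 ratio of 0 means that the pair was as frequent as that product gives. Of 259 pairs tested, 68 (26.3%) were more frequent and 61 (23.6%) less frequent than expected (edgeR quasi-likelihood, adjusted p under 0.05). The TRBJ1 segments had 126 of these pairs, of which 34 were more and 36 less frequent, beside 34 and 25 of the 133 TRBJ2 pairs. Pairs of a segment are not independent, since the expected numbers of a V or a J segment sum to its total. Among the 6 TRBJ1 segments, the log2 ratios spread most for TRBJ1-6 (SD 0.70 over 21 V segments) and least for TRBJ1-4 (SD 0.22 over 21).

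The lowest of all TRBJ1 pairs that passed was TRBV3 with TRBJ1-6. It was found in 53, 78, 47 and 93 in-frame clonotypes of the 4 libraries, against 126.0, 190.0, 128.3 and 223.8 expected. The pair was scarce in each library, with a log2 ratio of -1.30 ± 0.077 (SE, edgeR, adjusted p = 8.77e-22). Among out-of-frame joints of all libraries it was found in 62 clonotypes against 69.0 expected, a log2 ratio of -0.15. The highest TRBJ1-6 pair that passed was with TRBV19, found in 113, 157, 105 and 133 clonotypes against 64.7, 90.2, 60.1 and 70.4 expected. Its log2 ratio was 0.83 ± 0.069 (SE, edgeR, adjusted p = 6.80e-16) in frame and 0.40 out of frame.

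TRBV12-1 was in excess with TRBJ1-2 and scarce with TRBJ1-1, the neighbouring segment. With TRBJ1-2 its log2 ratio was 0.64, 0.59, 0.38 and 0.63 in the 4 libraries, fitted at 0.57 ± 0.039 (SE, edgeR, adjusted p = 7.94e-19). With TRBJ1-1 it was -0.62, -0.66, -0.64 and -0.46, fitted at -0.59 ± 0.043 (SE, edgeR, adjusted p = 3.75e-18). The signs were the same in all 4 libraries for both pairs. Among out-of-frame joints the log2 ratios of the 2 pairs were 0.02 and -0.27. The lowest pair of TRBJ1-2 was with TRBV14, at -1.13 ± 0.082 (SE, edgeR, adjusted p = 3.58e-18), and -0.75 out of frame on 14 clonotypes. The highest pair of TRBJ1-1 was with TRBV13-1, at 0.40 ± 0.032 (SE, edgeR, adjusted p = 2.39e-16), and -0.04 out of frame.

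TRBJ1-3 had its highest pair with TRBV26 (0.50 ± 0.084 SE) and its lowest with TRBV4 (-0.63 ± 0.088 SE). TRBJ1-5 had its highest with TRBV31 (0.46 ± 0.094 SE) and its lowest with TRBV17 (-0.93 ± 0.13 SE). TRBJ1-4 had its highest with TRBV19 (0.23 ± 0.058 SE) and its lowest with TRBV20 (-0.71 ± 0.23 SE), the latter on 37 clonotypes. The edgeR adjusted p-values of these 6 pairs ran from 1.74e-08 for TRBV4 with TRBJ1-3 to 0.00747 for TRBV20 with TRBJ1-4. The last call was lost without wild-type library 1 (adjusted p = 0.0633), without Vsig4-/- library 1 (0.0507) and without clonotypes of 1 count (0.384). Of the 70 TRBJ1 pairs past the threshold in frame, 49 had the same sign among out-of-frame joints. The number was similar in proportion for TRBJ2 (40 of 59) and for all pairs past the threshold (89 of 129).

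**Figure D4:**
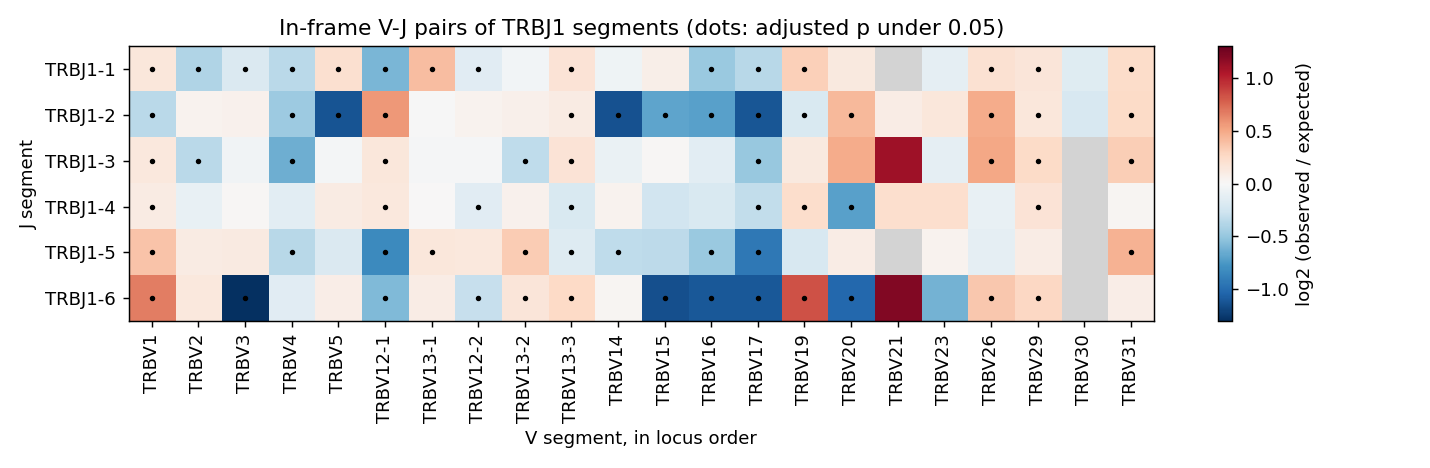
Log2 ratio of observed to expected in-frame clonotypes for each TRBJ1 segment (rows) and V segment (columns, in locus order), with dots on pairs past the threshold and grey where a pair was not tested. TRBJ1-6 with TRBV3 (-1.30) and TRBJ1-2 with TRBV14 (-1.13) are among the darkest blue cells, and TRBJ1-6 with TRBV19 (0.83) is the darkest red cell with a dot.

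The J segment with the most similar V partners was, for each of the 6, another TRBJ1 segment. Over 20 V segments, the log2 ratios of TRBJ1-1 correlated best with those of TRBJ1-3 (Pearson r = 0.56), and the best match of TRBJ1-3 was in turn TRBJ1-1. The best match of TRBJ1-2 was TRBJ1-3 (r = 0.50) and that of TRBJ1-4 was TRBJ1-6 (r = 0.51). TRBJ1-5 and TRBJ1-6 each matched TRBJ1-1 best (r = 0.52 and 0.54). These are descriptions across V segments of the same 4 libraries, in which all J segments share the V totals.

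Clone size was compared through the count of each clonotype, where more cells of a clone and more RNA per cell cannot be told apart. TRBJ1 clonotypes had lower counts than TRBJ2 clonotypes. Their mean log2 count was lower by 0.24 in wild-type 1, 0.26 in wild-type 2, 0.26 in Vsig4-/- 1 and 0.13 in Vsig4-/- 2. All 4 libraries had the same sign, and the mean difference was -0.22 ± 0.060 (SD, n = 4, exact sign-flip permutation test, p = 0.125, the smallest that the design allows). Against all TRBJ2 clonotypes together, each of the 6 segments had the same sign in all 4 libraries, from a mean difference of -0.10 ± 0.066 for TRBJ1-2 to -0.30 ± 0.13 for TRBJ1-5 (SD, n = 4). Single TRBJ2 segments were not always higher. In Vsig4-/- 2 the mean log2 count of TRBJ1-2 (1.865) lay above TRBJ2-2 (1.844), TRBJ2-3 (1.785) and TRBJ2-4 (1.850). It was level with TRBJ2-5 (1.865) and below TRBJ2-1 (1.901) and TRBJ2-7 (1.898). Among out-of-frame clonotypes the mean log2 count was 1.74 ± 0.18 with TRBJ1 and 1.76 ± 0.18 with TRBJ2 (SD, n = 4).

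The share of TRBJ1 was lower among clonotypes with 11 to 100 counts than among those with fewer counts, and did not change evenly from class to class. Among clonotypes with 1 count it was 31.7%, 33.7%, 34.3% and 32.2% in wild-type 1, wild-type 2, Vsig4-/- 1 and Vsig4-/- 2, below the class of 2 to 10 counts in 3 of the 4. Among clonotypes with 2 to 10 counts it was 33.3%, 33.4%, 34.7% and 32.7% in the same order. Among clonotypes with 11 to 100 counts it was 27.7%, 26.6%, 27.0% and 28.4%, below both lower classes in every library. Above 100 counts it was 22.8%, 21.7%, 28.1% and 25.1%, which in Vsig4-/- 1 was higher than in the class before. Among clonotypes above 0.01% of in-frame counts it was 21.4%, 19.8%, 26.7% and 26.2%, against 30.6%, 31.3%, 32.3% and 31.6% of all in-frame clonotypes. The difference of -7.92 ± 2.93 percentage points (SD, n = 4) had the same sign in all 4 libraries (exact sign-flip permutation test, p = 0.125). TRBJ1-3, TRBJ1-4, TRBJ1-5 and TRBJ1-6 each had this sign in all 4 libraries, TRBJ1-1 and TRBJ1-2 in 3 of them (exact p of 0.125, 0.250 and 0.375, adjusted over the 6 segments 0.188 to 0.375). Among the 100 largest clonotypes the share was 31.0%, 24.0%, 27.0% and 30.0%, and in wild-type 1 it was thus not below that of all clonotypes. Above 0.1% of counts the share was 23.3%, 33.3%, 26.8% and 30.0% on 30, 21, 71 and 60 clonotypes. The 95% Wilson intervals there, such as 11.8% to 40.9% in wild-type 1, contain the share of all clonotypes, so a difference was not detectable at this number of clonotypes. Such intervals cover counting error only.

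**Figure D5:**
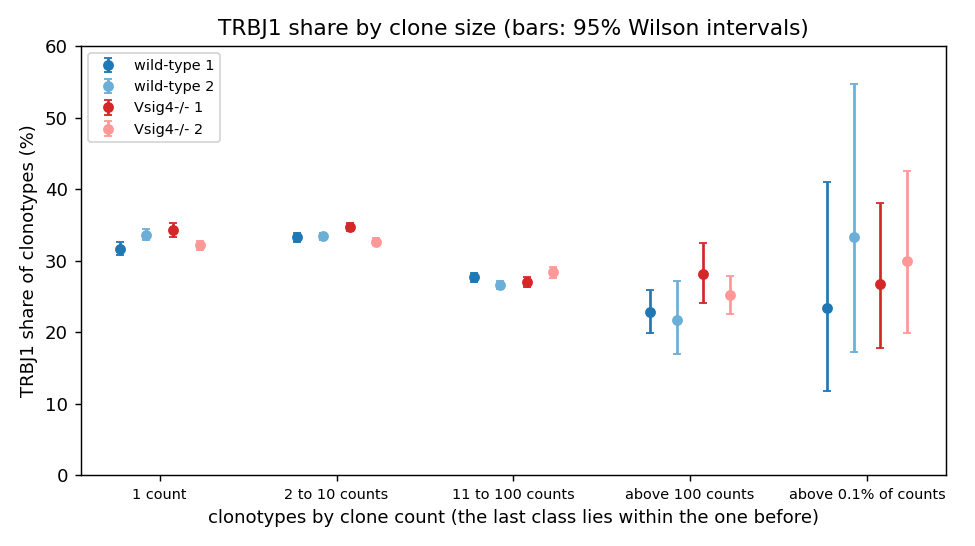
TRBJ1 share (%) of in-frame clonotypes by clone count, 1 point per library with its 95% Wilson interval, where the class above 0.1% of counts lies within the class above 100 counts. The share is 32.7% to 34.7% at 2 to 10 counts and 26.6% to 28.4% at 11 to 100 counts, and the intervals are wide above 0.1%.

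Wild-type and Vsig4-/- libraries were then compared for their use of the TRBJ1 segments. By clonotypes, each counted once, 0 of 12 J segments passed the threshold (0%; edgeR, 2 at an unadjusted p under 0.05; DESeq2, 0). TRBJ1-2 had the largest log2 difference relative to its error, 0.11 ± 0.039 (SE, edgeR, adjusted p = 0.0969). Its shares of 6.16% and 6.35% in wild-type libraries lay below the 6.58% and 6.87% of Vsig4-/- libraries. The genotypes also did not overlap for TRBJ1-3, TRBJ1-5, TRBJ1-6, TRBJ2-3 and TRBJ2-7. TRBJ1-5 and TRBJ1-6 had log2 differences of 0.14 ± 0.11 and 0.13 ± 0.084, TRBJ1-3 had -0.05 ± 0.064, and TRBJ1-1 and TRBJ1-4 had 0.01 ± 0.039 and 0.01 ± 0.041 (SE, edgeR, adjusted p from 0.497 to 0.862). The count of calls rested on single libraries. It was 6 without Vsig4-/- library 1 and 1 without Vsig4-/- library 2, and in the former TRBJ1-2 (0.13), TRBJ1-3 (-0.09) and TRBJ1-6 (0.19) were among the calls on the log2 scale. Each of these fits has 1 Vsig4-/- library, so its spread comes from the wild-type libraries alone, and in the former the lone library is the one that stood apart.

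By counts, 3 of 12 J segments (25%) passed the threshold, TRBJ1-1 being the one TRBJ1 segment among them. TRBJ1-1 held 7.15% and 7.62% of in-frame counts in wild-type and 5.75% and 5.50% in Vsig4-/- libraries. Both Vsig4-/- values lay below both wild-type values. In share of counts the genotypes also did not overlap for TRBJ1-2, TRBJ1-3, TRBJ1-4, TRBJ2-2, TRBJ2-3, TRBJ2-5 and TRBJ2-7, so lack of overlap was common. The number of TRBJ1-1 counts did overlap, in libraries of unequal depth. It was 62570 for wild-type 1, 65343 for wild-type 2, 55107 for Vsig4-/- 1 and 67578 for Vsig4-/- 2. For TRBJ1-1 the log2 difference in share was -0.39 ± 0.13 (SE, edgeR, adjusted p = 0.0282). The call was lost by DESeq2 (-0.20, adjusted p = 0.237), by TMM normalization (-0.18, adjusted p = 0.533), with the replicate number as a block (adjusted p = 0.388) and without any 1 of the 4 libraries (adjusted p from 0.107 to 0.157). With clonotypes above 0.1% of counts left out, an alternative chosen after the data were seen, the log2 difference was 0.07 and the shares were 7.68%, 7.90%, 8.85% and 7.49%. By counts TRBJ1-3 gave -0.48 ± 0.33, TRBJ1-5 -0.59 ± 0.53, TRBJ1-2 -0.20 ± 0.13, TRBJ1-4 0.18 ± 0.17 and TRBJ1-6 0.25 ± 0.43 (SE, edgeR, adjusted p from 0.333 to 0.623).

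The cluster as a whole moved in opposite directions by the 2 measures. Its share of clonotypes was 0.984 percentage points higher in Vsig4-/- libraries, and its share of counts was lower by 3.41 points (25.9% and 27.7% in wild-type, 23.6% and 23.1% in Vsig4-/- libraries). Genotypes did not overlap in either share. In a two-sided exact permutation test p was 0.333 for both shares, the smallest that 6 splits of 4 libraries allow. The lower share of counts did not mean fewer TRBJ1 counts. Their number overlapped between genotypes and was highest, at 284237, for Vsig4-/- 2, which had the lowest share. The number of TRBJ2 counts did not overlap. It was 648802 for wild-type 1, 620257 for wild-type 2, 732491 for Vsig4-/- 1 and 943677 for Vsig4-/- 2. Among out-of-frame clonotypes the cluster's share was likewise higher in Vsig4-/- libraries (28.2% and 30.0% in wild-type, 30.7% and 31.5% in Vsig4-/- libraries). Without clonotypes above 0.1% of counts, the cluster held 26.5% and 26.3% of counts in wild-type and 27.7% and 28.1% in Vsig4-/- libraries. CDR3 length of TRBJ1 clonotypes differed by 0.0207 amino acids between genotypes, with means of 13.8 amino acids in every library (exact permutation p = 0.333). Mean trimming was 2.58 bases in wild-type and 2.58 in Vsig4-/- libraries.

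Single large clones of either cluster weighed on the count shares. The largest in-frame TRBJ2 clonotype had 27298 counts in wild-type 1, 3697 in wild-type 2, 52404 in Vsig4-/- 1 and 203614 in Vsig4-/- 2. That of Vsig4-/- 2 was a TRBJ2-5 clonotype and held 21.6% of the TRBJ2 counts there. Only in wild-type 2 was the largest TRBJ1 clonotype the larger. The largest in-frame TRBJ1 clonotype of each library is shown by its CDR3, with the stretch assigned to the J segment in capitals (germline bases and any palindromic bases before them), because the 4 joints keep very different lengths of J.
wild-type 1, TRBV13-1 with TRBJ1-2: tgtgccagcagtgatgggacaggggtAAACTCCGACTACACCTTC
wild-type 2, TRBV1 with TRBJ1-5: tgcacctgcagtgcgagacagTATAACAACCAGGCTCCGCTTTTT
Vsig4-/- 1, TRBV12-2 with TRBJ1-6: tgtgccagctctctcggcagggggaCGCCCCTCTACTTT
Vsig4-/- 2, TRBV3 with TRBJ1-2: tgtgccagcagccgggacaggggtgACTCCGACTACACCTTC
The TRBV1 clonotype of wild-type 2 had 18318 counts, 2.14% of the in-frame counts of its library (95% Wilson interval 2.11% to 2.17%) and 56.9% of all TRBJ1-5 counts there. Its TRBJ1-5 was untrimmed and is preceded by 2 palindromic bases. TRBJ1-5 held 3.76% of counts in wild-type 2, and 1.73% without clonotypes above 0.1%, of which this was the one TRBJ1-5 clonotype in the library. The share without such clonotypes was 1.88%, 2.02% and 2.39% in wild-type 1, Vsig4-/- 1 and Vsig4-/- 2, respectively. The same sequence was listed with 395 counts in wild-type 1, 27 in Vsig4-/- 1 and 51 in Vsig4-/- 2.

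The TRBJ1-2 clonotype of wild-type 1 had 10797 counts (1.23% of in-frame counts), the TRBJ1-6 clonotype of Vsig4-/- 1 had 9237 (0.964%) and the TRBJ1-2 clonotype of Vsig4-/- 2 had 12277. The Vsig4-/- 1 clonotype had lost 11 bases of TRBJ1-6 and held 28.3% of the TRBJ1-6 counts of that library, which had the highest TRBJ1-6 share by counts (3.41%). The TRBJ1-2 joints of wild-type 1 and Vsig4-/- 2 had lost 1 and 3 bases and held 18.6% and 17.3% of the TRBJ1-2 counts there. The largest TRBJ1-1 clonotype of any library was smaller, with 4268 counts in Vsig4-/- 2, or 6.32% of the TRBJ1-1 counts. The largest TRBJ1-3 and TRBJ1-4 clonotypes, with 5203 and 10084 counts, were also in Vsig4-/- 2 and were joined to TRBV13-2.

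The share of clonotypes found again in another library was, within the cluster, highest for TRBJ1-2 and lowest for TRBJ1-5. Of the amino acid clonotypes (CDR3 with V and J segment), 16.7% of TRBJ1-2 and 15.2% of TRBJ1-1 were found in at least 2 libraries. The share was 13.9% for TRBJ1-3, 13.0% for TRBJ1-4, 12.3% for TRBJ1-6 and 10.7% for TRBJ1-5. For the cluster it was 14.2%, beside 15.7% for TRBJ2. In all 4 libraries 418 TRBJ1 clonotypes (0.699%) were found, which were encoded by a mean of 3.81 nucleotide sequences each, against 1.14 over all TRBJ1 amino acid clonotypes. For TRBJ2 there were 1146 (0.906%), with 4.28 sequences each against 1.16, so this was not particular to TRBJ1. With clonotypes under 1% of their share in another library left out, 396 TRBJ1 clonotypes remained in all 4. These are pooled counts over 4 libraries, and deeper coverage of a clonotype raises its chance of being found again. A clonotype required in all 4 libraries also has more occasions to show different nucleotide sequences, whereas most of the comparison set was found in 1 library. The numbers of sequences are therefore not compared like with like.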

How the data were processed

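TRB clonotypes of sorted liver CD8+ T cells were analysed in 2 wild-type and 2 Vsig4-/- libraries, grouped by the genotype in the labels. Per the file headers, the deposited tables give a clone count, a clone fraction and a quality score for each CDR3 with its V, D, J and C segments. The deposited counts are unnormalized whole numbers. The sources used here do not name the assembly program or say whether a count is a read or a molecule. The build mm10 is named per the submitters' processing notes. The deposited fraction equalled the count over the table's total and was used for that check alone. The deposited quality score (lowest CDR3 base quality) was used to count rows below 37 (2.27% to 3.44% of rows), and no filter was set on it.

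In-frame rows had a CDR3 without a frame break or stop codon, and the first V and J segment was taken where hits were tied. Trimming was read from the deposited reference points, and kept plus removed bases equalled the germline length in 99.9% of rows. Positions and symbols of all 12 J segments came from RefSeq (GRCm38.p6). The germline and CDR3 sequences printed came from the deposited tables. Segments or pairs with at least 10 clonotypes over the libraries entered fits with edgeR 4.0.16 (quasi-likelihood tests, column totals as offsets, Benjamini-Hochberg, threshold 0.05) in R 4.3.3. For V-J pairs, the expected number was the offset, and the largest p of the quasi-likelihood and Poisson bounds was used. DESeq2 1.42.0 was an alternative. Single values per library entered two-sided exact permutation tests (6 splits of 2 against 2, or 16 sign flips) in Python 3.11.15 with numpy 2.4.6, pandas 2.3.3 and SciPy 1.17.1. Plots used matplotlib 3.10.9. The fits were tested on simulated data.

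The text names all 6 TRBJ1 segments, the 3 V partners with the largest log2 ratio each way past the threshold, the highest and lowest pair past the threshold per TRBJ1 segment, its most similar J segment and the largest TRBJ1 clonotypes. The members and lists were chosen with earlier results of these data known. Alternatives were TMM, DESeq2, no filter, other handling of clonotypes with 1 count, tied hits, near copies, stop codons and palindromic bases, weighting by counts, other size limits, the replicate number as a block and each library left out. The interaction tests, the clone count and V-J stretch comparisons, the removal of clonotypes above 0.1% of counts and a crossed block were chosen once the data had been seen.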

Additional observations from a re-analysis of the deposited data

Results flagged for a closer look

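TRBJ1-5 was the one result in which both libraries of a genotype moved one way and both libraries of the other genotype the opposite way. Its log2 ratio of in-frame to out-of-frame share was 0.09 and 0.11 in wild-type libraries and -0.07 and -0.07 in Vsig4-/- libraries. The fitted difference, Vsig4-/- minus wild-type, was -0.17 ± 0.13 (SE, edgeR, adjusted p = 0.462 over 12 segments), so it did not pass the threshold. It rests on 105, 172, 146 and 128 out-of-frame TRBJ1-5 clonotypes in wild-type 1, wild-type 2, Vsig4-/- 1 and Vsig4-/- 2. In that test 0 of 12 J segments passed (0%; edgeR, 1 at an unadjusted p under 0.05; DESeq2 was not run on it).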

How the results depend on the processing

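With 2 libraries per genotype, exact tests cannot reach 0.05, and counting error limits rare pairs. Results that answer a comparison numbered 15 with 126 alternatives, of which 113 kept direction and side of the threshold. Single segments and pairs numbered 78 with 672 alternatives, of which 609 did. For the exact tests in both tallies the side of the threshold was fixed in advance, so only their direction could change. The cause was not tested for any of the changes below.

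The number of J segments called by counts between genotypes was 0 under TMM, DESeq2 and the replicate block and without clonotypes above 0.1% of counts, and 0 to 1 with a library left out. By clonotypes it was 0 with the replicate block and 0 to 6 with a library left out. V segments called out of frame numbered 5 (without wild-type library 1) to 7. Equal replicate numbers did not deviate together (correlation of deviations -0.61 by clonotypes, 0.17 by counts). A crossed replicate block, added after the data were seen, called 0 segments by clonotypes and 3 by counts.

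Without clonotypes above 0.1% the genotype difference in TRBJ1 share of counts was 1.51 points, and the log2 differences by counts were 0.0689 (TRBJ1-1), 0.14 (TRBJ1-2), -0.0350 (TRBJ1-4) and 0.29 (TRBJ1-5). TMM gave 0.0237 for TRBJ1-2. With a library left out TRBJ1-5 ranged from -1.06 to 0.12 and TRBJ1-6 from -0.12 to 0.54. By clonotypes TRBJ1-1 was -0.0035 with amino acid clonotypes and ranged from -0.0372 to 0.0494, and TRBJ1-4 was -0.0064 without clonotypes of 1 count and ranged from -0.0082 to 0.0251. In-frame against out-of-frame, the log2 ratio without clonotypes of 1 count was -0.0078 for TRBJ1-2 and -0.0203 for TRBJ1-5, the latter ranging from -0.0226 to 0.0505 with a library left out. The genotype difference of this ratio for TRBJ1-3 ranged from -0.18 to 0.0407.

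Trimming (in-frame minus out-of-frame) ranged from -0.0572 to 0.000332 bases for the cluster with a library left out. The range was -0.0438 to 0.0120 for TRBJ1-2, -0.0353 to 0.0753 for TRBJ1-5 and -0.0539 to 0.172 for TRBJ1-6. Without palindromic bases it was 0.0751, -0.113 and -0.0977 for these 3. CDR3 length of TRBJ1-6 weighted by counts differed by -0.0730 amino acids. Among the 100 largest clonotypes the share differed by 0.259 (TRBJ1-2), 0.626 (TRBJ1-3) and 0.493 points (TRBJ1-5), and above 0.1% of counts by 2.00 (TRBJ1-3) and 0.286 (TRBJ1-5).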
